A study of Homo sapiens with 9 samples.

Results

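Cells of the human colorectal carcinoma line HCT116 that carry a HUWE1-WT knock-in were compared by RNA-seq with the parental cells, HUWE1-P. The members were chosen by the line named in the labels, as the 3 HUWE1-WT and the 3 HUWE1-P libraries, 6 of the 9 libraries of the series. The other 3 libraries are HUWE1-CS, a knock-in line made in the same way, in which the catalytic cysteine of HUWE1 is exchanged for serine. They enter the fit only to share the estimate of spread, and their values are given beside a result where they help to read it.

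HUWE1-P cells are unedited HCT116 cells. HUWE1-WT cells were made from them with Cas9, a pair of guide RNAs and a repair template that carries the end of the HUWE1 reading frame with its cysteine kept, followed by a P2A peptide and a blasticidin resistance gene. The line thus went through 2 antibiotics, puromycin and blasticidin, and through growth from single cells, with the edit checked by genotyping. No line received a treatment before RNA was taken. Parental cells did not go through transfection, selection or cloning, so the cassette, the selection and the cloning cannot be told apart in this comparison. Whether the 3 HUWE1-WT libraries come from 1 clone or several is not given in the sources used here, and p-values measure the spread between these libraries only.

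HUWE1 is a very large ubiquitin ligase of the HECT family, which takes ubiquitin onto a cysteine near its C terminus as a thioester before passing it to a substrate. It is known for marking proteins of cell death, DNA damage response and proliferation for degradation, among them MCL1, p53 and MYC. A knock-in that keeps the cysteine serves as the control for one that removes it, and the comparison with parental cells shows what else separates the edited control from unedited cells.

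The codon around which the lines are built is shown because it is the position at which HUWE1-WT keeps the cysteine and HUWE1-CS carries serine. HUWE1 (Entrez 10075) lies on the minus strand of chromosome X at 53559057 to 53713697 of GRCh37. In its transcript of 83 exons and 4374 residues, the cysteine is residue 4341. Its codon is split between exon 82, which ends in bases 53560969 and 53560968, and exon 83, which starts with base 53560372, with an intron of 595 bases between them. These positions describe the unedited gene. The homology regions of the repair template lie on either side of them, and in the knock-in lines the reading frame of the template replaces this stretch. The reference sequence of the spliced transcript is given 5′ to 3′ on the coding strand, with 12 bases on each side and the cysteine codon in capitals.
HUWE1 cysteine codon: tcagctcacacaTGTtttaatcagctg

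The 9 libraries held between 1610984 and 2060349 counts over 11350 genes, so that 3 counts correspond to 1.45 to 1.86 CPM, the count of a gene scaled to a fixed library size. Levels are CPM normalized by TMM, edgeR's correction for library composition. Epithelial markers of the colon gave a summed level of 4447 to 4589 CPM in HUWE1-P and 4470 to 4883 CPM in HUWE1-WT cells, led by the keratin KRT8 at 2055 and 2122 CPM. VIL1, CDX1, LGALS4, GPA33 and CDH17 are among the 8 of 20 such markers that the table does not list. Of 21 markers of blood, vessel, fibroblast, nerve and liver cells, 3 were listed, with a summed level of 32.3 to 39.8 CPM in HUWE1-P and 34.8 to 44.2 CPM in HUWE1-WT cells, and PTPRC, CD3E, HBB and ALB were not listed.

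Transcripts of HUWE1 itself, the edited gene, were at 561, 545 and 522 CPM in the HUWE1-P libraries and at 498, 453 and 455 CPM in the HUWE1-WT libraries. The HUWE1-WT libraries were all below the HUWE1-P libraries, as for 5.31% of all genes. The means lay close together, at 543 ± 19.8 and 469 ± 25.8 CPM (SD, n = 3 each). The log2 fold change was -0.21 (SE 0.0627, 95% interval -0.34 to -0.09), with an adjusted p of 0.354 by edgeR's quasi-likelihood test, which does not pass the threshold of 0.01 used throughout. HUWE1 has a long transcript. With the trend of fold change with transcript length removed, its log2 fold change was -0.11, at an adjusted p of 0.865 by edgeR. Whether transcript length, or the replaced stretch of the gene in the knock-in lines, bears on the HUWE1 level was not tested. Across 21 alternative settings the log2 fold change of HUWE1 lay between -0.26 and -0.11, and in none was HUWE1 called. In HUWE1-CS cells HUWE1 was at 336 ± 11.7 CPM, below both other lines. The libraries of the 3 lines did not overlap for this gene. Against HUWE1-P the log2 fold change of HUWE1-CS was -0.69 (adjusted p 1.06e-15, edgeR), and against HUWE1-WT it was -0.48 (adjusted p 4.68e-09, edgeR).

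Around the edited locus, 14 further genes within 1 Mb of HUWE1 were tested, and 0 of them passed the adjusted threshold or an unadjusted p of 0.05 in edgeR. DESeq2 also called 0 of them, since it called 0 genes in the whole comparison. Their log2 fold changes lay between -0.22 and 0.25 with a median of -0.04, 5 of them above 0 and 9 below, and the libraries of the lines overlapped for all 14, where over all genes 10.7% did not overlap. The median over all 11350 genes was -0.00. HSD17B10, a mitochondrial dehydrogenase and part of mitochondrial RNase P, lies 97.7 kb from HUWE1 and had a log2 fold change of -0.05. SMC1A, a subunit of the cohesin ring, lies 109.4 kb away and had -0.07. KDM5C, a histone H3 demethylase in the same window, was at 96.3 CPM in HUWE1-P and 102 CPM in HUWE1-WT cells.

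**Figure D1:**
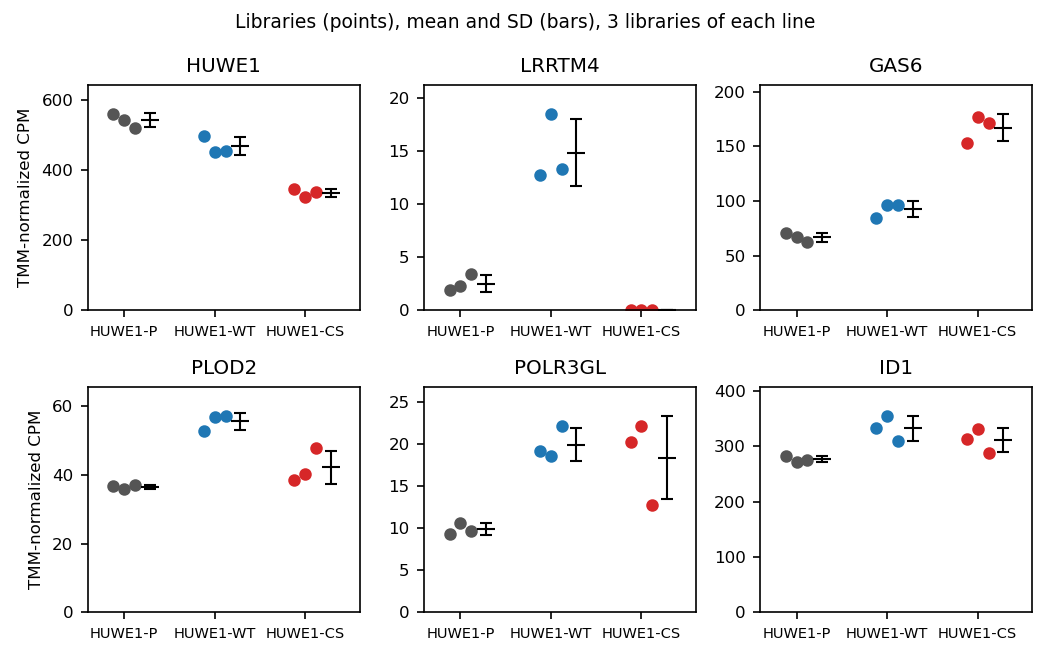
TMM-normalized CPM of 6 genes in each library of the parental line and of both knock-in lines, with a point for each library and a bar for the mean and SD of 3 libraries; each vertical axis starts at 0. HUWE1 is at 543 CPM in HUWE1-P, 469 CPM in HUWE1-WT (a difference that did not pass the threshold) and 336 CPM in HUWE1-CS cells, and LRRTM4 is at 14.9 CPM in HUWE1-WT against 2.49 CPM in HUWE1-P cells with 0 counts in HUWE1-CS cells.

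Across the transcriptome, few genes separated HUWE1-WT from HUWE1-P cells. At a false discovery rate of 0.01, 7 of 11350 genes were called, 0.0617% of those tested. The 1 gene higher in HUWE1-WT cells (0.00881%) was LRRTM4, and the 6 lower (0.0529%) are all encoded in the mitochondrial genome. At a rate of 0.05, 13 genes passed (0.115%), of which 3 were higher and 10 lower. DESeq2 called 0 genes at a rate of 0.01, with 180 genes at an unadjusted p under 0.05 where edgeR had 629 (5.54%).

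The differences were also small in size. The median of the absolute log2 fold change was 0.10, its 90th percentile 0.32 and its 99th percentile 0.69. For HUWE1-CS against HUWE1-P, which shares the HUWE1-P libraries, the same quantities were 0.22, 0.65 and 1.46, and 1934 genes (17%) were called. A log2 fold change of 1 or more in size was reached by 13 genes in HUWE1-WT against HUWE1-P and by 354 in HUWE1-CS against HUWE1-P. The libraries of HUWE1-WT and HUWE1-P did not overlap for 1216 genes (10.7%), with HUWE1-WT above for 613 (5.4%) and below for 603 (5.31%).

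**Figure D2:**
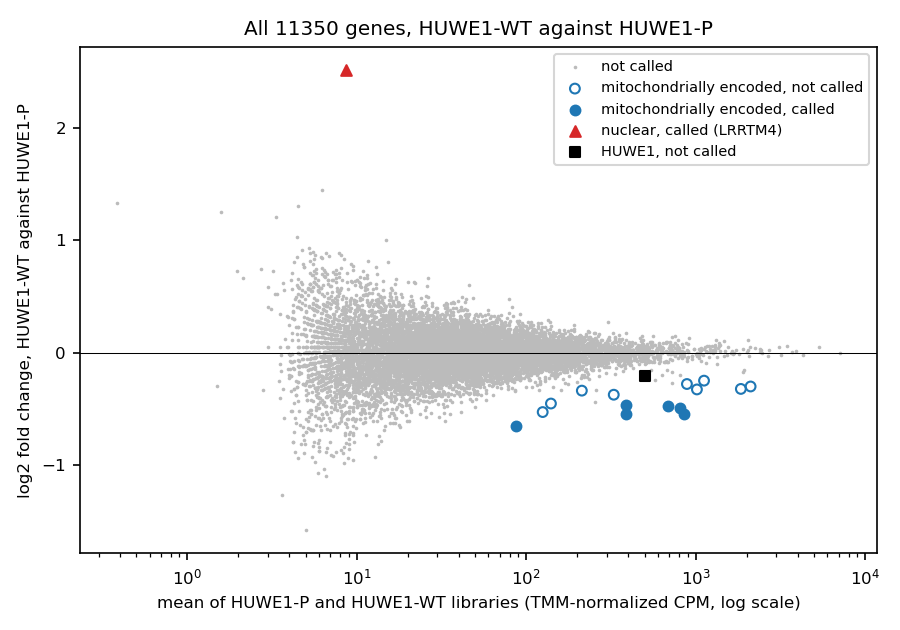
Log2 fold change of each gene in HUWE1-WT against HUWE1-P cells (vertical axis) by its mean CPM over both lines (horizontal axis, log scale), 11350 genes as points. LRRTM4 stands alone near 2.51, the mitochondrially encoded genes lie at high levels between -0.66 and -0.25, and most other points lie close to 0 and spread at low levels.

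How small a difference these libraries could have shown depends on the counts of a gene. The 95% interval of the log2 fold change lay within ±0.5 for 7038 genes (62.0%) and within ±1 for 10628 (93.6%). Among 1223 genes with a mean of over 300 counts, 99.3% had an interval within ±0.5. Among 301 genes with a mean under 10 counts, 25.9% had one within ±1, so that for most of those a log2 fold change of 1, up or down, still lay inside the interval.

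Pairs of libraries were also compared without any call. The chi-square statistic per degree of freedom over genes, which is near 1 where 2 libraries differ by counting error alone, was 1.16 to 1.36 between HUWE1-P libraries and 1.27 to 1.65 between HUWE1-WT libraries. Between a HUWE1-P and a HUWE1-WT library it was 1.20 to 1.87 with a median of 1.33. The upper end came from HUWE1-WT replicate 2, with 1.61, 1.87 and 1.76 against the 3 HUWE1-P libraries, 2 of them above every pair within a line, and the other 6 pairs were at 1.20 to 1.34. Between a HUWE1-CS library and one of HUWE1-P it was 4.52 to 6.52, and against HUWE1-WT it was 4.33 to 6.01. Every pair within a line was above counting error, so no library was taken for a duplicate of another.

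**Figure D3:**
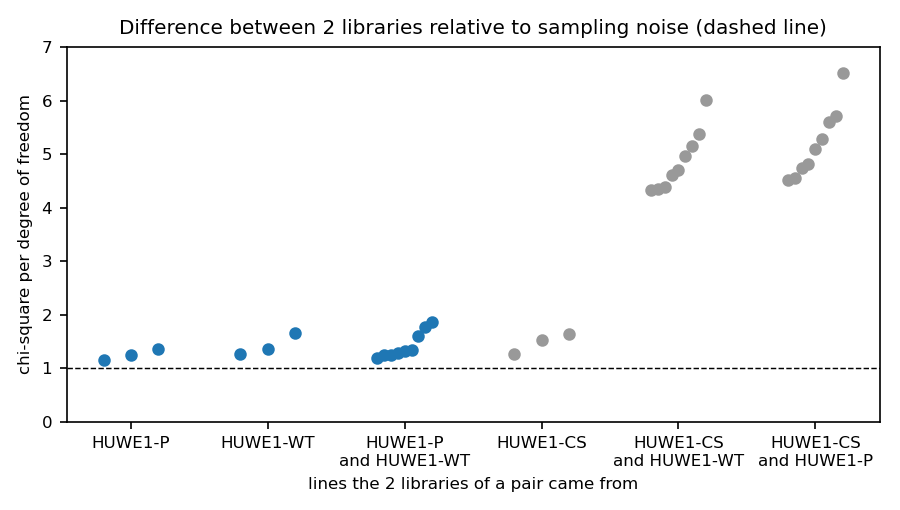
Chi-square per degree of freedom over genes for each pair of libraries, grouped by the lines the pair comes from, with a point for each pair and a dashed line at counting error. Pairs of HUWE1-P with HUWE1-WT lie between 1.20 and 1.87, with 2 pairs of HUWE1-WT replicate 2 above all pairs within a line (1.16 to 1.65), and pairs with HUWE1-CS lie between 4.33 and 6.52.

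LRRTM4 (Entrez 80059), a leucine-rich repeat protein of the synaptic membrane, was the 1 gene called higher. Its counts were 3, 4 and 7 in HUWE1-P and 22, 34 and 23 in HUWE1-WT libraries. These correspond to 2.49 ± 0.785 and 14.9 ± 3.18 CPM, and every HUWE1-WT library was above every HUWE1-P library, as for 5.4% of all genes. The log2 fold change was 2.51 (SE 0.383, 95% interval 1.75 to 3.28), with an adjusted p of 3.25e-05 by edgeR. From the summed counts of 79 against 14, the ratio per total count was 5.86 with an exact 95% interval of 3.29 to 11.2, which covers counting error only. The 3 HUWE1-CS libraries held 0 counts of the gene, where 3 counts in a library correspond to 1.70 to 1.78 CPM. LRRTM4 was therefore highest in HUWE1-WT cells, low in HUWE1-P cells and not detected in HUWE1-CS cells.

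The gene spans chromosome 2 at 76974811 to 77820445 on the minus strand of GRCh37, in a gap between genes of the table. The nearest tested gene on the left is GCFC2, 1037 kb away, with a log2 fold change of 0.14 (adjusted p 0.983, edgeR), and the nearest on the right is SUCLG1, a subunit of succinate-CoA ligase, 6830 kb away, with 0.05 (adjusted p 0.992, edgeR). Across the fits that kept the gene its log2 fold change lay between 2.25 and 2.81. The call was lost in DESeq2 at the threshold of 0.01, with an adjusted p of 0.0343, and in edgeR without the second replicate of both lines, at an adjusted p of 0.0799.

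The mitochondrial genome encodes 13 subunits of the respiratory chain and ATP synthase and the 2 ribosomal RNAs of the mitochondrial ribosome, and all 15 were in the table. All 15 had a log2 fold change below 0, between -0.66 and -0.25 with a median of -0.45, and an unadjusted p under 0.05. The 6 called genes are ND1, ND2, ND4 and ND5, subunits of complex I, and ATP6 and ATP8, subunits of ATP synthase. The 3 added at a rate of 0.05 are COX1, COX3 and ND4L. Mitochondrially encoded genes took 1.20, 1.40 and 1.14% of all counts in HUWE1-P and 1.05, 0.691 and 1.17% in HUWE1-WT libraries. The second HUWE1-WT library was thus the lowest and the second HUWE1-P library the highest, while the other 2 of each line lay close together and overlapped. Fewer mitochondrial transcripts per cell cannot be told apart here from more of all other transcripts, since the values are shares of each library.

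Among the complex I genes, ND4 was at 960, 1234 and 858 CPM in HUWE1-P and at 775, 435 and 886 CPM in HUWE1-WT libraries. Its log2 fold change was -0.54 (adjusted p 2.54e-04, edgeR), and the third HUWE1-WT library lay above the third HUWE1-P library. ND5 was at 435, 584 and 369 CPM and at 339.5, 213 and 399 CPM, a log2 fold change of -0.54 (adjusted p 3.86e-04, edgeR), with the same overlap. ND2 was at 789.5, 860.4 and 753 CPM and at 598, 353 and 782 CPM, with -0.47 (adjusted p 0.00705, edgeR). ND1 was at 389, 558 and 396 CPM and at 369.7, 209 and 397 CPM, with -0.46 (adjusted p 0.00796, edgeR). In each of these 4 genes the lowest of the 6 libraries was the second of HUWE1-WT and the highest the second of HUWE1-P. ND4L, whose reading frame overlaps that of ND4, had -0.53 (adjusted p 0.0197, edgeR), ND6, on the other strand, -0.45 (adjusted p 0.0677, edgeR), and ND3 -0.34 (adjusted p 0.269, edgeR).

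Of the ATP synthase subunits, ATP6 was at 919, 1141 and 774 CPM in HUWE1-P and 720.2, 443 and 853 CPM in HUWE1-WT libraries. Its log2 fold change was -0.49 (adjusted p 6.70e-04, edgeR). ATP8, which overlaps ATP6 in the genome, was at 101, 137.5 and 82.9 CPM and at 67.2, 48.0 and 88.4 CPM, with -0.66 (adjusted p 0.00241, edgeR). Both genes overlapped between the lines through the third HUWE1-WT library. How reads in the shared stretch of overlapping genes were assigned is not given in the sources used here.

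COX1, the catalytic subunit of cytochrome c oxidase, was at 1979, 2269 and 1926 CPM in HUWE1-P and at 1758.5, 1259 and 1919.9 CPM in HUWE1-WT libraries. Together with the ribosomal RNA RNR1 it was 1 of 2 mitochondrial genes, of 15, whose lines did not overlap, where 5.31% of all genes had HUWE1-WT below without overlap, although the highest HUWE1-WT library lay just under the lowest of HUWE1-P. The log2 fold change of COX1 was -0.32 (adjusted p 0.0105, edgeR). COX3 had -0.33 (adjusted p 0.0197, edgeR) and COX2 -0.28 (adjusted p 0.401, edgeR). CYTB of complex III had -0.37 (adjusted p 0.0695, edgeR). RNR1 was at 1237, 1210.1 and 1210.3 CPM and at 1060.3, 831 and 1187 CPM, and it and RNR2 had -0.25 and -0.30.

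The size of the mitochondrial difference rested on the second replicates. Taken as the median over the 15 genes of the log2 difference from the HUWE1-P mean, the HUWE1-WT libraries stood at -0.35, -0.92 and -0.10, and the HUWE1-P libraries at -0.05, 0.22 and -0.16. The third HUWE1-WT library thus lay within the range of the parental ones, and the first and second lay below it. Without the second replicate of both lines, edgeR called 0 genes in all, with 524 at an unadjusted p under 0.05. The median log2 fold change of the 15 genes was then -0.093, with COX2 at 0.025 and CYTB at 0.010, and ND2 alone kept an unadjusted p under 0.05. With all libraries, DESeq2 and edgeR's robust fit called 0 of the 15, with 2 and 1 at an unadjusted p under 0.05. limma-voom called 6 of them, with all 15 at an unadjusted p under 0.05. The number of mitochondrial genes called was 2, 0 and 11 without HUWE1-P replicate 1, 2 and 3, and 11, 0 and 15 without HUWE1-WT replicate 1, 2 and 3. In HUWE1-CS cells the share was 1.08, 1.05 and 0.831%, and the median log2 fold change against the same HUWE1-P libraries was -0.34. In that comparison 9 of 15 genes were called, where 17% of all genes were.

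**Figure D4:**
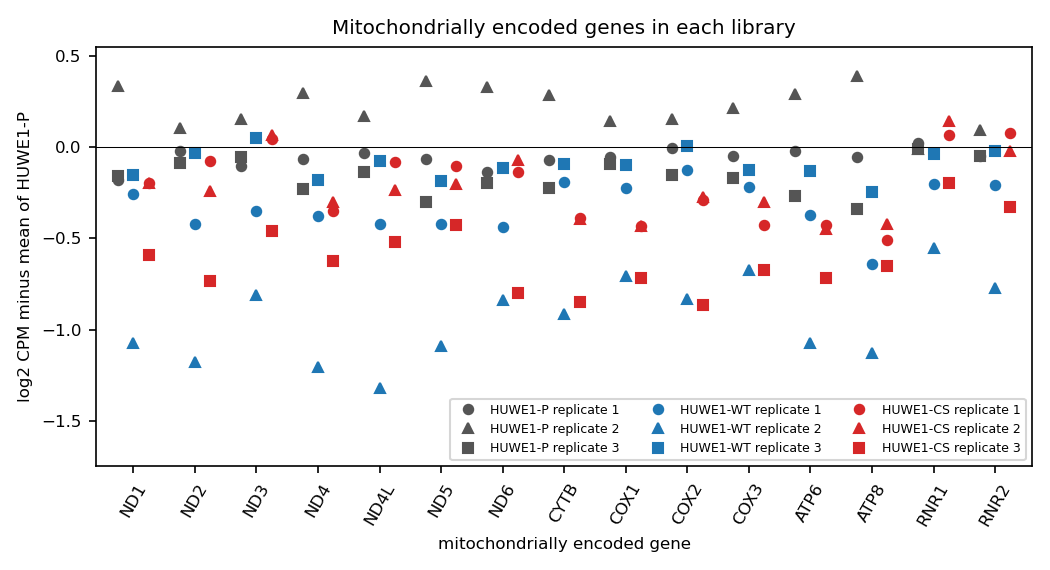
Log2 difference of each of the 15 mitochondrially encoded genes from the HUWE1-P mean (vertical axis, genes along the horizontal axis) in the 3 libraries of each line, with a point for each library and the replicate shown by its shape. Of the HUWE1-P and HUWE1-WT libraries, the second HUWE1-WT library is lowest, with a median of -0.92, the first is at -0.35, and the third, at -0.10, lies among the HUWE1-P libraries at -0.16 to 0.22.

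Nuclear genes that serve the mitochondrion did not show a shift of that size. Over all genes edgeR called 0.0617%, with 2.42% above 0 and 3.12% below 0 at an unadjusted p under 0.05, and DESeq2 called 0 genes. Of 45 tested genes for mitochondrial transcription, RNA processing and translation, edgeR called 0, and 1 was below 0 at an unadjusted p under 0.05. Their median log2 fold change was -0.02 beside -0.00 over all genes, and 39 had a 95% interval within ±0.5. MRM3, a methyltransferase of the mitochondrial large ribosomal RNA, had the smallest p of that list, at 58.1 ± 4.70 CPM in HUWE1-P and 43.5 ± 3.20 CPM in HUWE1-WT cells (adjusted p 0.496, edgeR). TUFM, the mitochondrial elongation factor Tu, was at 559.7 and 586 CPM. Of 77 nuclear genes for respiratory chain and ATP synthase subunits, edgeR called 0. An unadjusted p under 0.05 was reached by 4 with a value above 0 and 1 below, and the median was 0.03. Of these 77, 74 had an interval within ±0.5. ATP5F1B, the beta subunit of ATP synthase, was at 1220.0 and 1271 CPM, and UQCRFS1, the Rieske iron-sulfur protein of complex III, at 126 and 152 CPM (adjusted p 0.497, edgeR).

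An entry without a symbol, Entrez 100131754, was at 253, 349 and 277 CPM in HUWE1-P and at 236, 131 and 283 CPM in HUWE1-WT libraries. Its libraries were in the order of the mitochondrial genes, lowest in the second HUWE1-WT and highest in the second HUWE1-P library. The log2 fold change was -0.44 (adjusted p 0.0453, edgeR), with -0.18 without HUWE1-WT replicate 2 and -0.031 without both second replicates, and the entry was not matched to a gene of the reference annotation. MTRNR2L9, a nuclear gene that resembles the mitochondrial RNR2, had 0.03.

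Besides LRRTM4, the 2 nuclear genes with a symbol that passed at a rate of 0.05 were higher in HUWE1-WT cells. GAS6 (Entrez 2621, chromosome 13, 114523522 to 114567049), a secreted ligand of the receptor kinases AXL, TYRO3 and MERTK, was at 70.8, 66.8 and 62.2 CPM in HUWE1-P and at 84.0, 96.5 and 96.5 CPM in HUWE1-WT libraries. The lines did not overlap, as for 10.7% of all genes, and the log2 fold change was 0.48 (SE 0.110, adjusted p 0.0332, edgeR). Without HUWE1-WT replicate 1 it passed the threshold of 0.01, at an adjusted p of 0.00741 by edgeR. Without any other single library of HUWE1-P or HUWE1-WT it did not pass 0.05, with an adjusted p of 0.0824 to 0.528 by edgeR. With all libraries the adjusted p was 0.132 in edgeR's robust fit and 0.9997 in DESeq2. In HUWE1-CS libraries GAS6 was at 153, 177 and 171 CPM, above both other lines. PLOD2 (Entrez 5352, chromosome 3, 145752926 to 145881512), which hydroxylates lysines in collagen, was at 36.6, 35.9 and 37.1 CPM and at 52.7, 56.7 and 57.0 CPM, again without overlap. Its log2 fold change was 0.60 (SE 0.140, adjusted p 0.0404, edgeR). Across 21 alternative settings the log2 fold change of PLOD2 lay between 0.58 and 0.64. Its adjusted p from edgeR, limma-voom or DESeq2 lay between 0.0259 and 0.9997. In HUWE1-CS libraries PLOD2 was at 38.6, 40.3 and 47.6 CPM, with a mean between those of the other lines.

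POLR3GL (Entrez 84265, chromosome 1, 145456236 to 145470400), a subunit of RNA polymerase III, was at 9.31, 10.7 and 9.64 CPM in HUWE1-P and at 19.1, 18.5 and 22.1 CPM in HUWE1-WT libraries, from 15 to 38 counts a library. The lines did not overlap, as for 10.7% of all genes, and the log2 fold change was 1.01 (SE 0.249, adjusted p 0.0695, edgeR). It was at 20.2, 22.1 and 12.8 CPM in HUWE1-CS libraries, also above HUWE1-P (log2 fold change 0.89, adjusted p 0.00484, edgeR). ID1 (Entrez 3397, chromosome 20, 30193086 to 30194318), an inhibitor of basic helix-loop-helix factors, was at 282, 272 and 275 CPM and at 333, 354.5 and 310.5 CPM. Its log2 fold change was 0.27 (adjusted p 0.109, edgeR), and all 3 HUWE1-WT libraries were above the parental ones.

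A few more genes are named after their values were seen. Over all genes, 10.7% did not overlap between the lines. TFRC, the transferrin receptor, was at 671, 578 and 640.3 CPM in HUWE1-P and at 534, 517 and 540.2 CPM in HUWE1-WT libraries, without overlap (log2 fold change -0.25, adjusted p 0.107, edgeR). NDRG1, a gene known to respond to hypoxia and iron, was at 64.6, 72.4 and 75.2 CPM and at 98.5, 94.3 and 89.5 CPM, without overlap (0.41, adjusted p 0.157, edgeR). SRRM2, a scaffold of nuclear speckles, had -0.27 (adjusted p 0.0679, edgeR), and NEAT1, the RNA of paraspeckles, -0.33 (adjusted p 0.163, edgeR). With all libraries, edgeR called none of these 4 at a rate of 0.01 or 0.05. SRRM2 passed at 0.01 without HUWE1-WT replicate 1, where it had -0.37 (adjusted p 3.43e-04, edgeR), and had -0.13 without both second replicates. NEAT1 had -0.18 without HUWE1-P replicate 2 and -0.084 without both second replicates.

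The 13 genes whose log2 fold change was 1 or more in size were genes of few counts. Their mean counts over the 6 libraries were at most 26.5, with a median of 9, where the median over all genes was 72.8. Of the 13, 8 were higher in HUWE1-WT cells and 5 lower, 11 had an unadjusted p under 0.05, and LRRTM4 alone was called. MYLK, myosin light chain kinase, had 7, 6 and 5 counts in HUWE1-P and 14, 15 and 19 counts in HUWE1-WT libraries (adjusted p 0.220, edgeR). RPEL1, a gene that closely resembles RPE and may share reads with it, had 16, 12 and 13 counts and 7, 4 and 2 counts (adjusted p 0.313, edgeR). HSF4, a heat shock transcription factor, had 14, 20 and 15 counts and 5, 9 and 8 counts, and EPM2A, the glycogen phosphatase laforin, 4, 5 and 5 counts and 13, 7 and 14 counts. These 4 were named after their values were seen. All 4 were without overlap, as 10.7% of all genes were, and none passed the adjusted threshold. FAM185A, MORN1, FGF9 and PDE4D, also among the 13, overlapped between the lines.

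Pathways linked to HUWE1 or common in cultured HCT116 cells were then described by list. Over all genes edgeR called 0.0617%, with 2.42% above 0 and 3.12% below 0 at an unadjusted p under 0.05. These shares stand beside every list below. At so low a share of calls, a list with 0 called says little about its members. Of 41 tested targets of p53, the factor whose stability HUWE1 is known to affect, edgeR called 0, with 3 above 0 and 1 below 0 at an unadjusted p under 0.05. The median was 0.08, beside 0.57 for HUWE1-CS against the same HUWE1-P libraries. In that comparison 26 of the 41 were called, where 17% of all genes were. CDKN1A, the cell cycle inhibitor p21, was at 157 ± 1.94 CPM in HUWE1-P and 172 ± 12.5 CPM in HUWE1-WT cells (adjusted p 0.911, edgeR). TRIAP1, a p53-regulated inhibitor of apoptosis, had a log2 fold change of -0.37 (adjusted p 0.696, edgeR). Of 22 tested HECT ligases, with HUWE1 itself among them, 0 were called and the median was -0.07. At an unadjusted p under 0.05, 2 were below 0, and 1 of these 2 was HUWE1.

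Of 27 tested targets of ATF4, the factor of the amino acid and stress response, 0 were called, 3 were above 0 at an unadjusted p under 0.05, and the median was 0.04. CEBPG, a dimer partner of ATF4, was at 61.0 ± 4.21 and 76.4 ± 3.17 CPM (adjusted p 0.631, edgeR), and the amino acid transporter SLC7A5 at 848 and 826 CPM. Of 25 sterol synthesis genes, 0 were called and 3 were above 0 at an unadjusted p under 0.05, with a median of 0.06. Against the same HUWE1-P libraries HUWE1-CS had a sterol median of -0.51 with 18 called, where 17% of all genes were. INSIG1, the sterol sensor of the endoplasmic reticulum, was at 81.0 and 97.0 CPM (adjusted p 0.756, edgeR). Of 29 tested interferon-responsive genes, 0 were called and 1 was above 0 at an unadjusted p under 0.05, with a median of -0.02, and HLA-C was at 219 and 249 CPM.

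Cell cycle genes had list medians close to 0. Of 50 tested E2F targets, 0 passed either the adjusted threshold or an unadjusted p of 0.05 in edgeR, the values lay between -0.22 and 0.18 with a median of 0.00, and 48 had a 95% interval within ±0.5. MCM7, a subunit of the replicative helicase, was at 626 and 633 CPM. Of 38 genes of G2 and mitosis, 0 were called, with 1 above and 1 below 0 at an unadjusted p under 0.05 and a median of 0.05. MKI67, the proliferation marker, was at 676 ± 42.3 and 590.0 ± 31.4 CPM (adjusted p 0.560, edgeR). Its log2 fold change was -0.20 (95% interval -0.32 to -0.07). The HUWE1-WT libraries were all below the HUWE1-P libraries for MKI67, as for 5.31% of all genes. DESeq2 called 0 members of every list named here, since it called 0 genes in the whole comparison.

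A small trend with transcript length ran through the comparison. The median log2 fold change was 0.02 for 722 genes of up to 1 kb, 0.03 for 1985 genes of 1 to 2 kb, 0.01 for 3996 genes of 2 to 4 kb, -0.02 for 3477 genes of 4 to 8 kb and -0.06 for 949 genes over 8 kb. Among the 949 longest, 620 were below 0 and 329 above. At an unadjusted p under 0.05, 90 were lower and 8 higher, where 3.12% and 2.42% of all genes were. Of the 949, edgeR called 0, where it called 0.0617% of all genes, and DESeq2 called 0 genes in the whole comparison. By library, the medians of the longest group were 0.01, -0.10 and -0.07 in HUWE1-WT replicate 1, 2 and 3, so replicate 1 did not share the trend. Spearman's rho of the log2 fold change with transcript length was -0.147 over 11129 genes, and with GC content 0.0393, as a description across genes that share their libraries. NEAT1 with 22743 bases, HUWE1 with 14720, MKI67 with 12716 and SRRM2 with 9044 are in the longest group. With the length trend removed, the log2 fold change moved from -0.33 to -0.20 for NEAT1, from -0.20 to -0.11 for MKI67 and from -0.27 to -0.21 for SRRM2, as it moved from -0.21 to -0.11 for HUWE1.

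**Figure D5:**
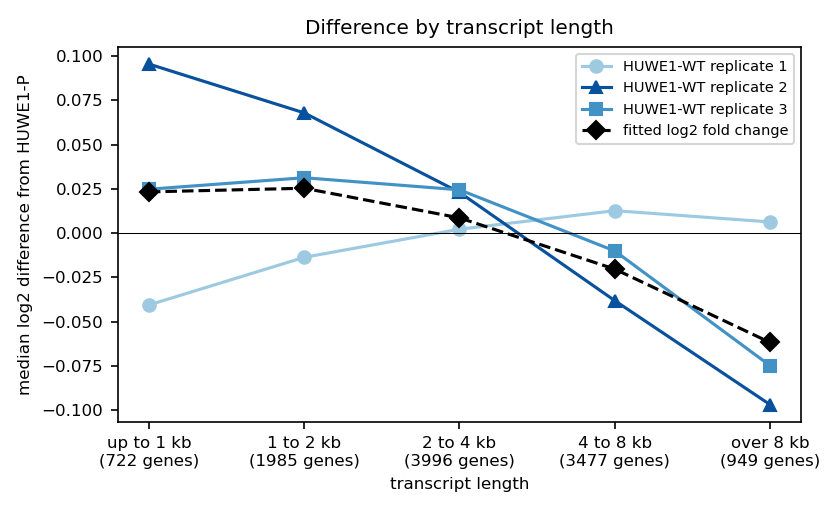
Median log2 difference from the HUWE1-P mean of genes grouped by transcript length (horizontal axis, from up to 1 kb to over 8 kb), with a line for each HUWE1-WT library and a dashed line for the fitted log2 fold change, which runs from 0.02 to -0.06. The second HUWE1-WT library runs from 0.10 to -0.10 and the third from 0.02 to -0.07, while the first runs from -0.04 to 0.01.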

How the data were processed

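RNA-seq libraries of parental HCT116 cells and of the HUWE1-WT and HUWE1-CS lines, 3 of each, were made by poly(A) selection and read single-end. The authors trimmed reads with Skewer, aligned them to hg19 with STAR 2.5.4 after bcl2fastq 2.20, and deposited raw counts per gene for all 9 libraries. The counting tool, its annotation and its use of strand are not given in the sources used here. The authors' own tables of comparisons, with log2 fold changes, F scores, p-values and FDR by edgeR 3.26.8, were not used.

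Counts of 11350 genes, each with at least 41 counts in sum, were normalized by TMM and tested by glmQLFit and glmQLFTest (edgeR 4.0.16, R 4.3.3, earlier estimator) over all 9 libraries with line as the only term and Benjamini-Hochberg adjustment. The common dispersion was 0.00228. DESeq2 1.42.0 and limma-voom 3.58.1 were alternatives. edgeR's SE was taken from the fold change and F. Differences of single libraries used log2(CPM + 1), except those of the mitochondrially encoded genes, which used log2 CPM. Gene positions and lengths are from GRCh37, to which 11129 genes were matched; for mitochondrial genes no positions are given. Scripts were tested on simulated data.

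Members and gene lists were chosen with earlier results of these data known. Named were the called genes, the 5 smallest p-values in each direction, HUWE1 and its neighbours within 1 Mb, tested neighbours of called nuclear genes, all mitochondrially encoded genes, and of each other list the member of smallest p and that of highest mean CPM. Genes added later are marked. Intervals of counts cover counting error only.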

Additional observations from a re-analysis of the deposited data

How the results depend on the processing

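The 7 calls (1 higher, 6 lower, 6 mitochondrial) depended on single libraries and on some choices of tool. limma-voom also called 7 (1 higher, 6 lower, 6 mitochondrial). In edgeR, RLE size factors gave 7 calls, the newer estimator 8, the 6 compared libraries alone 8, and scaling by total counts 5. DESeq2 called 0 (0 higher, 0 lower, 0 mitochondrial), with 180 at an unadjusted p under 0.05. edgeR's robust fit called 1, with 0 lower and 0 mitochondrial, and 1 of the 15 mitochondrial genes then had an unadjusted p under 0.05. A minimum of 10 counts in every library left 4 calls, with 0 higher, since it removed LRRTM4. Leaving out 1 library gave 1 to 19 calls, 1 to 2 higher, 0 to 17 lower, 0 to 15 mitochondrial, and a mitochondrial median of -0.63 to -0.21. The counts were 3, 1 and 13 without HUWE1-P replicate 1, 2 and 3, and 19, 1 and 17 without those of HUWE1-WT. Without the second replicate of both lines 0 were called (0 higher, 0 lower, 0 mitochondrial) and the mitochondrial median was -0.093. Without the mitochondrial genes 1 was called and 0 lower. A rate of 0.05 gave 13 (3 higher, 10 lower), and a log2 fold change of at least 1 gave 1 (0 lower, 0 mitochondrial). Removing the length trend, an alternative chosen after seeing the data, gave 9 calls, 8 of them mitochondrial.

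Replicate numbers did not pair the libraries: same-numbered HUWE1-P and HUWE1-WT libraries had deviations correlated at -0.03, -0.0043 and 0.02, and not every library correlated best with its own number. With a replicate block 7 genes were called. Of 969 values of single genes under alternatives, 962 kept their direction and 7 turned, all near 0. With 1 library left out MCM7 lay between -0.0020 and 0.041, HSD17B10 between -0.095 and 0.021 and SLC7A5 between -0.098 and 0.017, and without both second replicates COX2 was 0.025, CYTB 0.010, SLC7A5 0.0086 and MCM7 -0.0094. The cause of these changes was not tested. With 3 libraries a line, 25.9% of the 301 genes with a mean under 10 counts had a 95% interval within ±1, so most such genes could not be bounded at this depth.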

Other observations

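By chromosome, the median log2 fold change of HUWE1-WT against HUWE1-P lay between -0.02 on chromosome 15 and 0.01 on chromosome 8 over the nuclear chromosomes, and chromosome X, which carries HUWE1, was at -0.00 over 359 genes. Of 3 more genes, named after their values were seen, all were higher in each HUWE1-WT library than in any HUWE1-P library, as 5.4% of all genes were. CMTM8 was at 19.9, 22.5 and 18.8 CPM in HUWE1-P and at 32.4, 39.3 and 24.4 CPM in HUWE1-WT libraries. TNFRSF6B, a decoy receptor for FAS ligand, was at 36.6, 48.3 and 36.1 CPM and at 56.8, 53.4 and 59.3 CPM. HOOK1, an adaptor that links cargo to microtubules, was at 33.5, 39.8 and 37.6 CPM and at 52.1, 54.5 and 48.3 CPM. None of the 3 passed the adjusted threshold of 0.01 in edgeR.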
